A study of Mus musculus with 10 samples.

Results

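The 9 CC chemokine ligands Ccl2, Ccl3, Ccl4, Ccl5, Ccl6, Ccl7, Ccl9, Ccl22 and Ccl24 were taken by symbol from a gene table of mouse liver RNA, as 9 of its 55291 genes. Throughout, Ccl4 is the gene of a chemokine and CCl4 is the solvent carbon tetrachloride, which injures the liver. CC chemokines are small secreted proteins that guide leukocytes by binding receptors on their surface. In the liver, Kupffer cells (the resident macrophages), recruited monocytes, lymphocytes and several other cell types can make them. After an injury they help to bring in the monocytes and other cells that clear damaged tissue.

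RNA-seq was done on 10 livers, each of a female mouse 16 to 20 weeks old, whose Cas9 gene stays silent until Cre removes a stop cassette. All mice received an AAV8 vector that carries a guide RNA under the U6 promoter and Cre under the hepatocyte promoter TBG, with either a non-targeting guide (NTC) or a guide against Bap1 (sgBap1), a deubiquitinase gene. After 10 days they were injected intraperitoneally with CCl4 in olive oil or with olive oil alone (Veh), and livers were taken 48 hours later. The groups were NTC-Veh (2 mice), sgBap1-Veh (2 mice), NTC-CCl4 (3 mice) and sgBap1-CCl4 (3 mice). Cre, and with it Cas9, is switched on in hepatocytes, whereas the RNA came from whole tissue of the right lobe, so that the other cells of the liver contribute and editing within a liver can be partial. In bulk RNA, fewer or more cells of a type and less or more RNA per cell cannot be told apart. The total estimated counts were 4.67e+07 and 4.24e+07 in the NTC-Veh livers and 4.44e+07 and 3.3e+07 in the sgBap1-Veh livers. They were 4.15e+07, 4.73e+07 and 3.33e+07 in the NTC-CCl4 livers and 5.22e+07, 4.73e+07 and 4.35e+07 in the sgBap1-CCl4 livers. Levels are given in CPM, counts scaled to a common library size, after TMM scaling, and 3 counts in a liver correspond to between 0.0511 and 0.112 CPM.

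Bap1, the gene the guide targets, was at 34.8 and 34.8 CPM in the NTC-Veh livers and at 17.6 and 19.5 CPM in the sgBap1-Veh livers. It was at 30.1, 31.5 and 29.5 CPM in the NTC-CCl4 livers and at 17.0, 21.8 and 19.1 CPM in the sgBap1-CCl4 livers. All 5 sgBap1 livers lay below all 5 NTC livers, with a log2 change of -0.91 (SE 0.12) under vehicle and -0.65 (SE 0.10) under CCl4. Without one liver these values of Bap1 ran from -0.99 to -0.84 and from -0.75 to -0.57. One library stood apart from the rest. In sgBap1-CCl4 replicate 2, the 7 fat cell markers summed to 545.3 CPM, with Fabp4 the most abundant at 255.8 CPM, against 5.76 to 30.6 CPM in the other 9 livers. The defining fat cell genes Adipoq and Plin1 had 2124 and 2017 counts in this liver, and at most 2 and 1 counts in any other. The counts of called ligands are given with and without it, as are those of the gene lists where they differ, and its part in them was not tested.

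Under CCl4 most of the 9 ligands were higher than under vehicle, 8 of them past the test in NTC and 6 in sgBap1. In the NTC livers the largest rise was that of Ccl7, from a mean of 0.137 CPM (SD 0.00172, n = 2) to 15.9 CPM (SD 5.19, n = 3). Ccl2, Ccl3, Ccl4 and Ccl6 rose by log2 fold changes of 3.83 to 4.77, Ccl22 by 2.89, and Ccl9 and Ccl24 by 1.38 and 0.82, while Ccl5 did not pass the test. In the sgBap1 livers Ccl2, Ccl3, Ccl4, Ccl6, Ccl7 and Ccl9 rose, and Ccl5, Ccl22 and Ccl24 did not pass the test. Summed over the 9 genes, the transcripts stood at 78.1 and 66.5 CPM in the NTC-Veh livers and at 334, 250 and 385 CPM in the NTC-CCl4 livers. The sums were 101.1 and 79.9 CPM in the sgBap1-Veh livers and 315, 422 and 278 CPM in the sgBap1-CCl4 livers, so that the lowest CCl4 liver was above the highest vehicle liver.

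All 9 ligands passed the filter on low counts, which left 17015 genes for the test. Ccl3 and Ccl4 had at most 13 counts in each vehicle liver and were tested because of their counts in the CCl4 livers. With edgeR's quasi-likelihood test and a Benjamini-Hochberg adjusted p under 0.05, 8 of the 9 were called higher for NTC-CCl4 against NTC-Veh, where 27.4% of all tested genes were called higher and 26.6% lower. For sgBap1-CCl4 against sgBap1-Veh, 6 of 9 were called higher, against 29.0% of all tested genes higher and 28% lower. DESeq2 called 9 and 7 of them and limma-voom 8 and 6. The livers of the 2 groups did not overlap for 9 of 9 ligands in NTC (36.7% of tested genes were higher without overlap) and for 8 of 9 in sgBap1 (37.3%). The median log2 fold change of the ligands was 3.83 in NTC and 3.41 in sgBap1, beside 0.03 and 0.04 over all tested genes. Scaling by library size alone moves the medians over all genes to 0.50 and 0.52. With it 8500 genes were called higher and 2061 lower in NTC, and 8614 higher and 2388 lower in sgBap1, against 4659 and 4519, and 4942 and 4758, with TMM. The p-values measure the spread between livers as the samples are labelled, each liver from a mouse of its own. Without sgBap1-CCl4 replicate 2, the counts called were again 8 and 6 and the medians of the ligands 3.84 and 3.27. The 9 ligands were chosen with earlier results of these data known. The counts and medians of this paragraph therefore describe these 9 and do not test CC ligands as a family. Of 9 other CC ligands that were tested, 1 was called higher and 3 lower in NTC, and 2 higher and 2 lower in sgBap1.

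**Figure D1:**
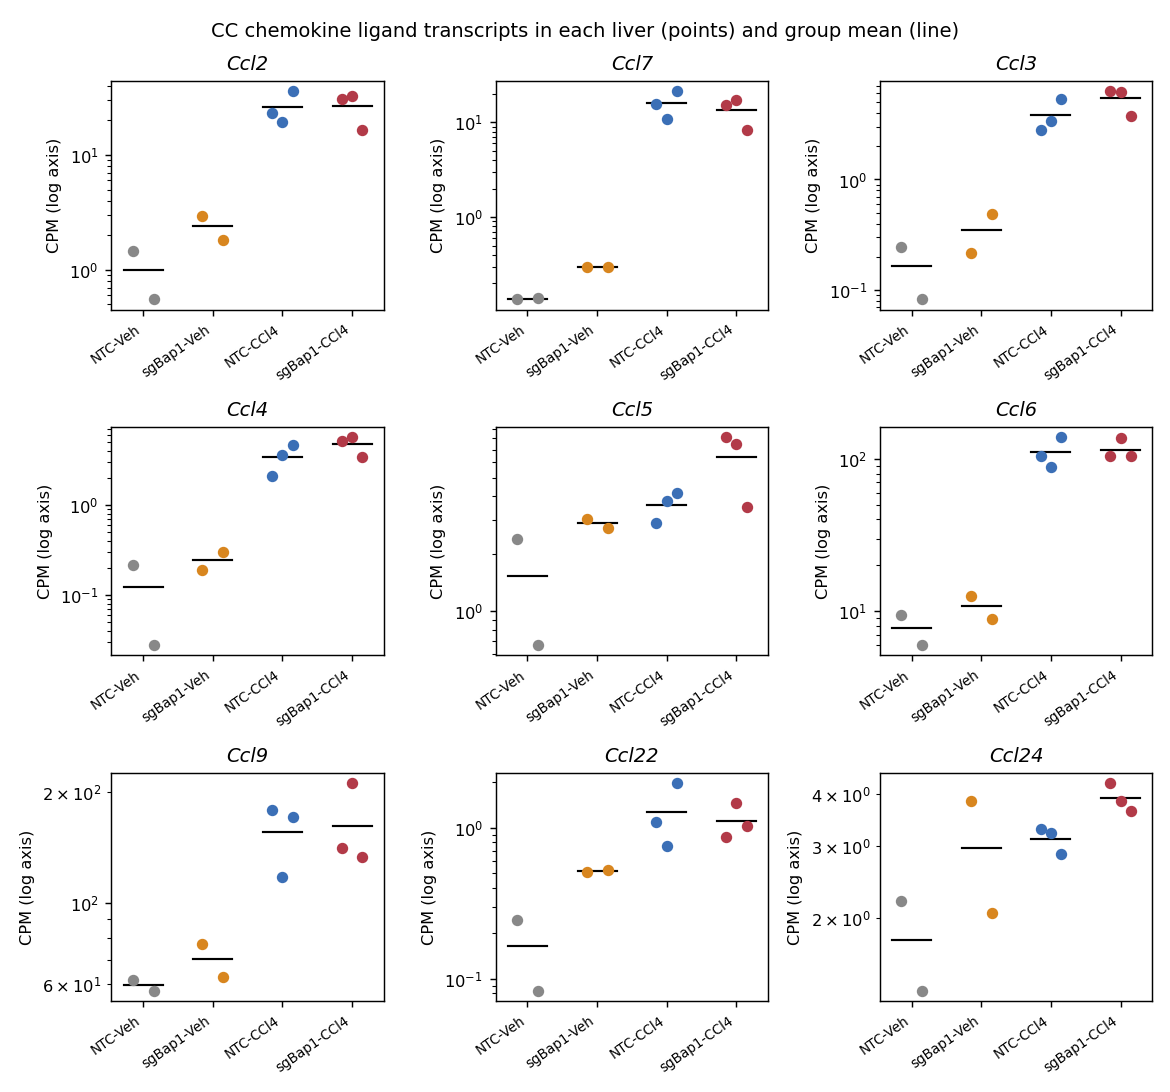
Level of each of the 9 ligands in each liver, in CPM on a log axis with its own range per gene, by group (points are livers, lines are group means; n = 2 for each vehicle group and 3 for each CCl4 group). For Ccl2, Ccl3, Ccl4, Ccl6, Ccl7, Ccl9 and Ccl22 every CCl4 liver lies above every vehicle liver, while the groups lie closer together for Ccl5 and Ccl24.

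Ccl2 and Ccl7 both attract monocytes through the receptor CCR2. Ccl2 was at 1.44 and 0.554 CPM in the NTC-Veh livers and at 23.3, 19.5 and 35.8 CPM in the NTC-CCl4 livers. In the sgBap1-Veh livers Ccl2 was at 2.93 and 1.83 CPM, and in the sgBap1-CCl4 livers at 30.7, 32.8 and 16.4 CPM. Every CCl4 liver had at least 16.4 CPM of Ccl2 and no vehicle liver more than 2.93 CPM, while the genotypes were mixed under CCl4 and apart under vehicle. The log2 fold change of Ccl2 with CCl4 was 4.70 (SE 0.54, with adjusted p = 0.000141 by edgeR quasi-likelihood and Benjamini-Hochberg, 3 of 3 livers higher) in NTC. It was 3.46 (SE 0.49, adjusted p = 0.000427 with the same test, 3 of 3 livers higher) in sgBap1. Without NTC-Veh replicate 1, the value in NTC was 5.55. Ccl7 had 5 and 5 counts in the NTC-Veh livers, 0.136 and 0.139 CPM, and 15.7, 10.8 and 21.2 CPM in the NTC-CCl4 livers. It had 11 and 8 counts in the sgBap1-Veh livers, 0.296 and 0.299 CPM, and 15.1, 17.3 and 8.25 CPM in the sgBap1-CCl4 livers. Ccl7 was thus close to the limit of the depth in all 4 vehicle livers and had 388 counts or more in each CCl4 liver. The rise of Ccl7 was the largest of the 9 in both genotypes, with a log2 change of 6.82 (SE 0.58, edgeR adjusted p = 1.49e-05, 3 of 3 livers higher) in NTC and 5.50 (SE 0.53, edgeR adjusted p = 2.73e-05, 3 of 3 livers higher) in sgBap1. As a ratio of summed counts scaled by library size, the rise of Ccl7 in NTC was 112-fold, with a 95% counting interval of 60.6 to 233, and in sgBap1 46.8-fold (29.9 to 77.9). These intervals cover counting error only.

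Ccl3, Ccl4 and Ccl5 are inflammatory chemokines that attract monocytes and T cells, and Ccl3 and Ccl5 bind CCR1. Ccl3 was at 0.245 and 0.0831 CPM (9 and 3 counts) in the NTC-Veh livers and at 2.79, 3.36 and 5.36 CPM in the NTC-CCl4 livers. It was at 0.215 and 0.487 CPM (8 and 13 counts) in the sgBap1-Veh livers and at 6.23, 6.20 and 3.74 CPM in the sgBap1-CCl4 livers. The CCl4 and vehicle livers did not overlap for Ccl3, whereas the genotypes overlapped under either treatment. The log2 fold change of Ccl3 with CCl4 was 4.51 (SE 0.56, edgeR adjusted p = 9.09e-05, 3 of 3 livers higher) in NTC and 4.01 (SE 0.50, edgeR adjusted p = 8.48e-05, 3 of 3 livers higher) in sgBap1. Ccl3 moved to 5.47 without NTC-Veh replicate 1 in NTC, and to 4.63 without sgBap1-Veh replicate 2 in sgBap1. Ccl4 followed a like course, with 0.218 and 0.0277 CPM (8 and 1 counts) in the NTC-Veh livers and 2.11, 3.61 and 4.66 CPM in the NTC-CCl4 livers. It was at 0.188 and 0.299 CPM (7 and 8 counts) in the sgBap1-Veh livers and at 5.21, 5.68 and 3.44 CPM in the sgBap1-CCl4 livers. Every vehicle liver was far below the lowest CCl4 liver for Ccl4. Its log2 fold change was 4.77 (SE 0.62, edgeR adjusted p = 0.000121, 3 of 3 livers higher) in NTC and 4.33 (SE 0.55, edgeR adjusted p = 0.000103, 3 of 3 livers higher) in sgBap1. Because one NTC-Veh liver held 1 count, the value of Ccl4 in NTC was 6.82 without NTC-Veh replicate 1 and 3.97 without NTC-Veh replicate 2. The ratio of summed counts of Ccl4 was 27.4 in NTC, with a 95% counting interval of 14.3 to 60.4.

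Ccl5, which T cells, natural killer (NK) cells and macrophages make, changed less than Ccl3 and Ccl4. Its level was 2.40 and 0.665 CPM in the NTC-Veh livers and 2.88, 3.76 and 4.16 CPM in the NTC-CCl4 livers. It was 3.04 and 2.73 CPM in the sgBap1-Veh livers and 8.12, 7.5 and 3.49 CPM in the sgBap1-CCl4 livers. Within each genotype the CCl4 livers lay above the vehicle livers, but NTC-CCl4 replicate 1 was below sgBap1-Veh replicate 1. The log2 fold change of Ccl5 with CCl4 was 1.23 (SE 0.51, edgeR adjusted p = 0.0667, 3 of 3 livers higher) in NTC and 1.14 (SE 0.47, edgeR adjusted p = 0.0612, 3 of 3 livers higher) in sgBap1, neither under the threshold. Ccl5 was called in both by DESeq2 (1.23 and 1.13) and by edgeR with library size alone (1.72 and 1.63), and in sgBap1 in the edgeR fit of only the 2 groups compared (1.14). Over the settings other than left-out livers its adjusted p ran from 0.0161 to 0.141 in NTC and from 0.0132 to 0.120 in sgBap1. In NTC it was also called without NTC-Veh replicate 1 (2.43) and without sgBap1-CCl4 replicate 3 (1.23), and it was lowest, and not called, without NTC-Veh replicate 2 (0.59). In sgBap1 it was called without NTC-Veh replicate 1 (1.14), NTC-Veh replicate 2 (1.15) or sgBap1-CCl4 replicate 3 (1.42). Over the fits without one liver, the adjusted p of Ccl5 ran from 0.0115 to 0.360 in NTC and from 0.0126 to 0.211 in sgBap1.

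Ccl6 and Ccl9 are ligands of CCR1 that myeloid cells make, and they gave the most RNA of the 9 ligands in these livers. Ccl6 was at 9.45 and 6.01 CPM in the NTC-Veh livers and at 105, 87.8 and 138 CPM in the NTC-CCl4 livers. It was at 12.7 and 8.87 CPM in the sgBap1-Veh livers and at 104, 136 and 105 CPM in the sgBap1-CCl4 livers. The 6 CCl4 livers formed one band for Ccl6, far above the 4 vehicle livers, with the genotypes mixed in both. The log2 fold change of Ccl6 was 3.83 (SE 0.30, edgeR adjusted p = 9.11e-06, 3 of 3 livers higher) in NTC and 3.41 (SE 0.29, edgeR adjusted p = 1.37e-05, 3 of 3 livers higher) in sgBap1. These were the smallest adjusted p-values among the 9 ligands in each genotype. Ccl9 started from a high level, 61.8 and 57.6 CPM in the NTC-Veh livers, and was at 178, 117 and 171 CPM in the NTC-CCl4 livers. It was at 77.4 and 62.8 CPM in the sgBap1-Veh livers and at 141, 211 and 133 CPM in the sgBap1-CCl4 livers. The lowest CCl4 liver for Ccl9, NTC-CCl4 replicate 2, was above the highest vehicle liver, sgBap1-Veh replicate 1. Its log2 fold change was 1.38 (SE 0.24, edgeR adjusted p = 0.000926, 3 of 3 livers higher) in NTC and 1.21 (SE 0.24, edgeR adjusted p = 0.00188, 3 of 3 livers higher) in sgBap1. The highest Ccl9 level was that of sgBap1-CCl4 replicate 2, and without this liver the value in sgBap1 was 0.96.

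Ccl22, a ligand of CCR4 made by dendritic cells and macrophages, was low in every liver. It was at 0.245 and 0.0831 CPM (9 and 3 counts) in the NTC-Veh livers and at 1.09, 0.751 and 1.98 CPM in the NTC-CCl4 livers. It was at 0.511 and 0.524 CPM (19 and 14 counts) in the sgBap1-Veh livers and at 0.868, 1.46 and 1.02 CPM in the sgBap1-CCl4 livers. The groups stood apart in steps for Ccl22, with both NTC-Veh livers lowest, both sgBap1-Veh livers above them, and all 6 CCl4 livers higher still and mixed by genotype. In NTC, Ccl22 rose with CCl4 by a log2 change of 2.89 (SE 0.62, edgeR adjusted p = 0.00266, 3 of 3 livers higher), and by 3.85 without NTC-Veh replicate 1. In sgBap1 its value was 1.11 (SE 0.50, edgeR adjusted p = 0.0816, 3 of 3 livers higher), not under the threshold, though it was called without NTC-CCl4 replicate 3 (1.11). Over the fits without one liver, the adjusted p of Ccl22 in sgBap1 ran from 0.0373 to 0.255. Over the other settings it ran from 0.0191 to 0.152, and Ccl22 was called with library size alone (1.59) and with only the 2 groups compared (1.10). Ccl24, a ligand of the eosinophil receptor CCR3, was at 2.21 and 1.33 CPM in the NTC-Veh livers and at 3.28, 3.21 and 2.86 CPM in the NTC-CCl4 livers. It was at 3.85 and 2.06 CPM in the sgBap1-Veh livers and at 4.26, 3.85 and 3.64 CPM in the sgBap1-CCl4 livers. Ccl24 is the one ligand whose sgBap1 groups overlapped, since sgBap1-Veh replicate 1 was above sgBap1-CCl4 replicate 3.

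Ccl24 rose with CCl4 in NTC by a log2 change of 0.82 (SE 0.28, edgeR adjusted p = 0.0307, 3 of 3 livers higher), the smallest change called among the ligands. The call on Ccl24 was lost without NTC-Veh replicate 2 (0.51), NTC-CCl4 replicate 1 (0.78) or NTC-CCl4 replicate 2 (0.80). In sgBap1 its value was 0.38 (SE 0.26, edgeR adjusted p = 0.239), with 2 of the 3 CCl4 livers above both vehicle livers, 1 of them by less than the digits printed here. Without sgBap1-Veh replicate 1 that value was 0.93, and called. Over the fits without one liver, the adjusted p of Ccl24 ran from 0.0128 to 0.244 in NTC and from 0.0304 to 0.944 in sgBap1. Over the other settings it ran from 0.00243 to 0.0340 in NTC and from 0.0157 to 0.300 in sgBap1, where library size alone gave a call (0.86). Ccl22 and Ccl24 were called in NTC and not in sgBap1, and the interaction, which tests that difference, was -1.78 (SE 0.86, edgeR adjusted p = 0.529) for Ccl22 and -0.44 (SE 0.38, edgeR adjusted p = 0.771) for Ccl24.

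The comparison of sgBap1-Veh with NTC-Veh asks what the Bap1 guide alone did to the ligands in livers without CCl4. Each of the 9 had a positive log2 fold change, from 0.23 for Ccl9 to 1.63 for Ccl22, and none passed the test. Ccl22 had a mean of 0.518 CPM (SD 0.00894, n = 2) in sgBap1-Veh and 0.164 CPM (SD 0.115, n = 2) in NTC-Veh. Ccl2 had a mean of 2.38 CPM (SD 0.778, n = 2) against 0.999 CPM (SD 0.628, n = 2). Both sgBap1 livers were above both NTC livers for Ccl2, Ccl5, Ccl7, Ccl9 and Ccl22, while the genotypes overlapped for Ccl3, Ccl4, Ccl6 and Ccl24.

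The edgeR quasi-likelihood test called 0 of the 9 ligands in sgBap1-Veh against NTC-Veh, where 0.406% of all tested genes were called (69 of 17015, and 150 of 16825 without sgBap1-CCl4 replicate 2). At an unadjusted p under 0.05 it had 1 of them, Ccl24, beside 12.3% of all tested genes (2100 of 17015). DESeq2 and limma-voom also called 0, with 3 and 1 of the 9 at an unadjusted p under 0.05. The 5 ligands without overlap compare with 21.7% of all tested genes that were higher in sgBap1-Veh without overlap. The median log2 fold change of the 9 was 0.92, beside 0.02 over all tested genes, and 9085 of the 17015 tested genes had a positive value. By gene, the log2 fold changes of the monocyte ligands were 1.27 (SE 0.60) for Ccl2 and 1.10 (SE 0.99) for Ccl7. They were 1.00 (SE 0.87) for Ccl3, 0.92 (SE 1.04) for Ccl4 and 0.92 (SE 0.56) for Ccl5. Ccl6 and Ccl9 were at 0.48 (SE 0.29) and 0.23 (SE 0.25), and Ccl22 and Ccl24 at 1.63 (SE 0.78) and 0.76 (SE 0.31). Single vehicle livers moved these values far. Without one liver they ran from 0.75 to 2.12 for Ccl2, from 0.38 to 1.96 for Ccl3, from 0.11 to 2.97 for Ccl4 and from 0.27 to 2.12 for Ccl5, in each case with the highest value without NTC-Veh replicate 1. They ran from 0.19 to 0.84 for Ccl6, from 1.08 to 1.11 for Ccl7, from 0.07 to 0.38 for Ccl9, from 1.07 to 2.59 for Ccl22 and from 0.21 to 1.17 for Ccl24. The smallest adjusted p was that of Ccl24, 0.351 (edgeR), with 1 of 2 sgBap1-Veh livers above both NTC-Veh livers. For Ccl7, 19 counts in the sgBap1-Veh livers stood against 10 in the NTC-Veh livers, a ratio of 2.17 with a 95% counting interval of 0.958 to 5.22, so that the depth alone does not set them apart. For Ccl22 the counts were 33 against 12, a ratio of 3.14 (1.58 to 6.67).

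Between sgBap1-CCl4 and NTC-CCl4, the ligands were spread around no difference. The largest value was that of Ccl5, whose mean was 6.37 CPM (SD 2.52, n = 3) in sgBap1-CCl4 and 3.60 CPM (SD 0.657, n = 3) in NTC-CCl4. Sample by sample, 2 sgBap1-CCl4 livers had more Ccl5 than any NTC-CCl4 liver, and the third lay among them. Ccl24 was the one ligand without overlap, at 3.91 CPM (SD 0.316, n = 3) against 3.12 CPM (SD 0.225, n = 3). Ccl2, Ccl6 and Ccl9 had nearly equal means in the genotypes, such as 26.6 CPM (SD 8.93, n = 3) against 26.2 CPM (SD 8.51, n = 3) for Ccl2.

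The edgeR quasi-likelihood test called 0 of 9 ligands in this comparison, with 0 at an unadjusted p under 0.05, where 0.329% of all tested genes were called (56 of 17015, and 24 of 16825 without sgBap1-CCl4 replicate 2) and 2376 of 17015 (14%) had an unadjusted p under 0.05. DESeq2 called 0, with 1 at an unadjusted p under 0.05, and limma-voom had 0 of either kind. The 1 ligand without overlap compares with 10.1% of all tested genes higher without overlap. The log2 fold change was 0.83 (SE 0.39, edgeR adjusted p = 0.376, 2 of 3 livers above all NTC-CCl4 livers) for Ccl5. It was 0.51 (SE 0.29) for Ccl3, 0.48 (SE 0.30) for Ccl4 and 0.33 (SE 0.22) for Ccl24. Ccl6 and Ccl9 were both at 0.06 (SE 0.22 and 0.20), and Ccl2 was at 0.03 (SE 0.35). Ccl22 and Ccl7 were at -0.15 (SE 0.35) and -0.22 (SE 0.29). The median of the ligands was 0.06, beside 0.00 over all tested genes. Without sgBap1-CCl4 replicate 2 the median was -0.08, and Ccl2 (-0.15), Ccl6 (-0.08) and Ccl9 (-0.18) turned negative, so that 4 of the 9 were positive. Ccl2 was also negative without NTC-CCl4 replicate 1 (-0.05), NTC-CCl4 replicate 2 (-0.15) or sgBap1-CCl4 replicate 1 (-0.09), and Ccl6 (-0.08) and Ccl9 (-0.11) without NTC-CCl4 replicate 2. Ccl22 and Ccl7 turned positive without NTC-CCl4 replicate 3 (0.29 and 0.04), Ccl22 without sgBap1-CCl4 replicate 1 (0.01) and Ccl7 without sgBap1-CCl4 replicate 3 (0.02). This comparison and that of NTC-CCl4 with NTC-Veh share the NTC-CCl4 livers.

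**Figure D2:**
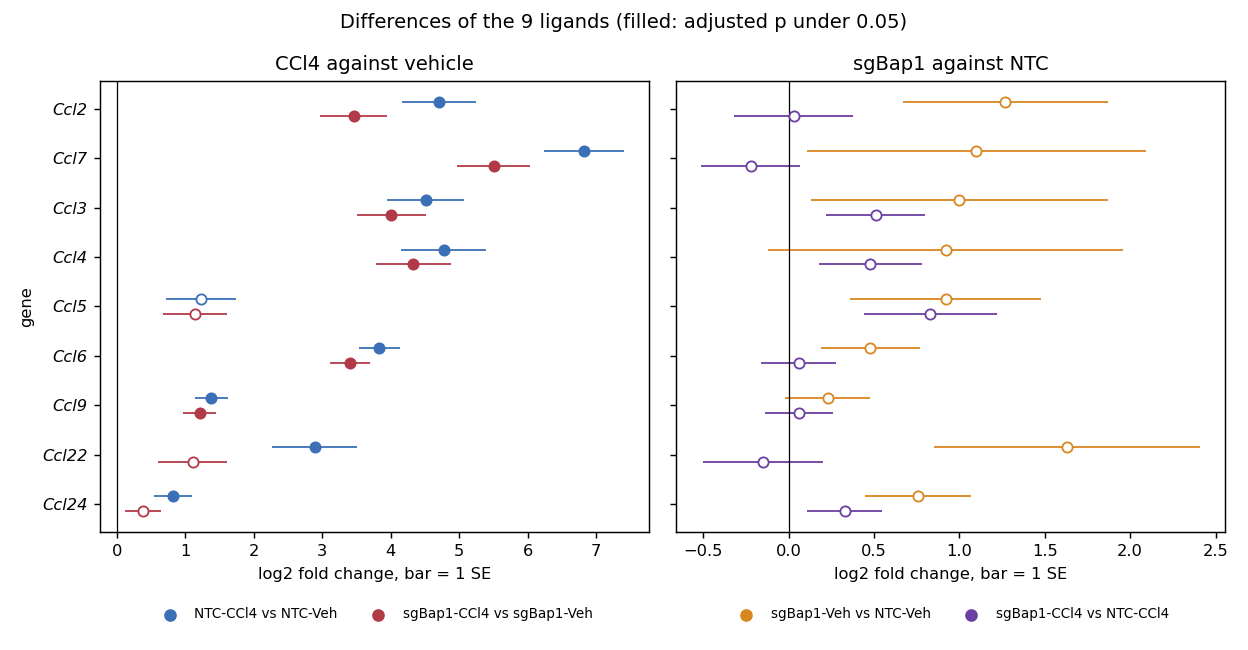
Log2 fold change of each ligand (points, with bars of 1 SE from the edgeR fit) for CCl4 against vehicle in each genotype on the left, and for sgBap1 against NTC under each treatment on the right; filled points have an adjusted p under 0.05. On the left every point lies above 0, with 8 filled for NTC and 6 for sgBap1, and on the right none is filled.

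The interaction asks whether CCl4 changed a ligand differently in the 2 genotypes. All 9 ligands had a smaller estimated rise in sgBap1 than in NTC, and for none did the difference pass the test. Over all tested genes, 8101 of 17015 had a positive value. The 9 values come from the same livers, in which ligands vary together, so their signs are not independent of each other. The largest differences were those of Ccl22 at -1.78 (SE 0.86), Ccl7 at -1.32 (SE 1.03) and Ccl2 at -1.24 (SE 0.69) on the log2 scale. Without one liver they ran from -2.74 to -1.22, from -1.54 to -1.07 and from -2.09 to -0.72, and that of Ccl4 reached -2.49. The vehicle livers enter both this value and the comparison of genotypes under vehicle, so the values of a gene in these comparisons are linked. Ccl3 was at -0.49 (SE 0.91), Ccl4 at -0.44 (SE 1.07), Ccl24 at -0.44 (SE 0.38), Ccl6 at -0.42 (SE 0.36), Ccl9 at -0.17 (SE 0.32) and Ccl5 at -0.08 (SE 0.68). The edgeR test called 0 of 9, with 0 at an unadjusted p under 0.05, and 0% of all tested genes (7 of 16825 without sgBap1-CCl4 replicate 2), of which 1764 of 17015 (10.4%) had an unadjusted p under 0.05. DESeq2 called 0 ligands with 2 at an unadjusted p under 0.05, and limma-voom had 0 of either kind. The median over the ligands was -0.44, beside -0.02 over all tested genes. Without sgBap1-CCl4 replicate 2, again 0 were called, the median was -0.58, and Ccl22 at -2.03 had an unadjusted p under 0.05. Single vehicle livers decided the sign for 4 ligands. Without NTC-Veh replicate 2 the values of Ccl3, Ccl4 and Ccl5 were 0.07, 0.37 and 0.56. Ccl24 was at 0.11 and Ccl5 at 0.00 without sgBap1-Veh replicate 1, and Ccl3 at 0.12 without sgBap1-Veh replicate 2. Ccl5 was also positive without NTC-CCl4 replicate 3 (0.03) and without sgBap1-CCl4 replicate 3 (0.19).

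Compared per kilobase of exon (exon lengths of GENCODE vM21, a different release from the vM25 of the counts), which allows levels of different genes to be set side by side, the order of the ligands differed between vehicle and CCl4. In the NTC-Veh livers Ccl9 was highest at 19.6 CPM per kb (SD 0.980, n = 2), followed by Ccl6 at 4.31 CPM per kb (SD 1.35, n = 2). Ccl5, Ccl24 and Ccl2 came next at 1.59, 1.37 and 0.878 CPM per kb, each overlapping with its neighbour. Ccl3, Ccl4 and Ccl7 followed at 0.214, 0.186 and 0.172 CPM per kb and overlapped, and Ccl22 was lowest at 0.0706 CPM per kb. The sgBap1-Veh livers had the same order down to Ccl3, with Ccl9 at 23 CPM per kb (SD 3.39, n = 2) and Ccl6 at 5.99 CPM per kb (SD 1.49, n = 2).

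In the NTC-CCl4 livers Ccl6 was at 61.5 CPM per kb (SD 14.3, n = 3) and Ccl9 at 51.0 CPM per kb (SD 11, n = 3), and their livers overlapped. Ccl2 and Ccl7 followed at 23 CPM per kb (SD 7.47, n = 3) and 19.9 CPM per kb (SD 6.48, n = 3), also overlapping. Ccl4, Ccl3 and Ccl5 stood at 5.24, 5.01 and 3.75 CPM per kb, each overlapping with the next. Ccl24 was lower at 2.41 CPM per kb and Ccl22 lowest at 0.547 CPM per kb. In the sgBap1-CCl4 livers the order was the same, with Ccl6 at 64.0 CPM per kb (SD 10.3, n = 3) and Ccl9 at 53.1 CPM per kb (SD 14.2, n = 3). As a share of the 9 ligands per kb, Ccl9 made up 63.5% to 76.2% in the NTC-Veh livers and 26.4% to 34.5% in the NTC-CCl4 livers. The share of Ccl6 was 13.5% to 16.5% and 34.4% to 36.3% in these groups, and that of Ccl7 was 0.532% to 0.697% and 10.1% to 12.5%. In the sgBap1 livers the share of Ccl9 was 60% to 61.9% under vehicle and 26.0% to 31% under CCl4. The share of Ccl2 ran from 4.84% to 6.09% in sgBap1-Veh, above the 1.96% to 3.97% of NTC-Veh. Under CCl4 it ran from 10.0% to 15.2% in sgBap1, and the 12% to 14.8% of NTC lay within that range.

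**Figure D3:**
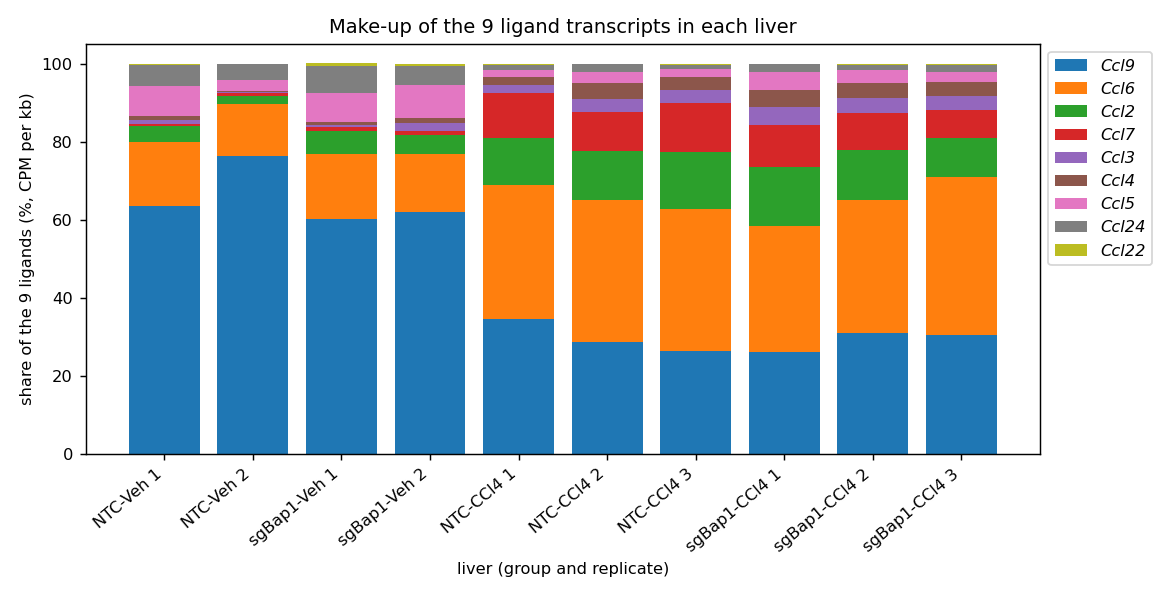
Share of each ligand in the sum of the 9 ligands per liver, in percent of CPM per kb of exon, with one stacked bar for each of the 10 livers. Ccl9 fills at least 60% of each vehicle bar and at most 34.5% of each CCl4 bar, where Ccl6, Ccl2 and Ccl7 take larger parts.

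Livers fall into a vehicle and a CCl4 cluster, so correlations between ligands were taken over the 10 livers with each group's mean removed, as a description of how livers of the same group vary together. Ccl3 and Ccl4 varied most alike, with a Pearson correlation of 0.91. Ccl5 varied with Ccl2 and with Ccl4 at 0.88 each, Ccl6 with Ccl22 at 0.88 and Ccl2 with Ccl6 at 0.87. Ccl2 and Ccl7, which share a receptor and a stretch of chromosome 11, were at 0.67. The lowest values were those of Ccl24 with Ccl3 (-0.05) and with Ccl7 (0.00), and that of Ccl4 with Ccl9 (0.08). Genes with the most like pattern were sought among the 13180 tested genes whose counts averaged 50 or more, ranked by correlation over the 10 livers, and the values given here again have the group means removed. For Ccl3 and Ccl4 the first gene was the same, Clec4e, a receptor of myeloid cells (0.94 and 0.95). For Ccl2 it was Dock2, a gene of leukocyte migration (0.97), and for Ccl22 it was Cd86, a co-stimulatory gene of antigen-presenting cells (0.95). Ccl6 was most like Capg (0.89), a gene for an actin-capping protein, and Ccl9 most like Septin2 (0.96). Ccl7 was most like Foxm1 (0.84) and Mki67 (0.78), genes of the cell cycle, and Tlr13 (0.86), a gene for an innate immune receptor. Ccl5 was most like Brd2 (0.94) and Ccl24 most like Dus3l (0.98). With the group means removed, 10 livers in 4 groups leave few independent values behind each of these numbers. The variation within groups is also part of the correlation by which the like genes were picked, so that choice can raise their values.

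**Figure D4:**
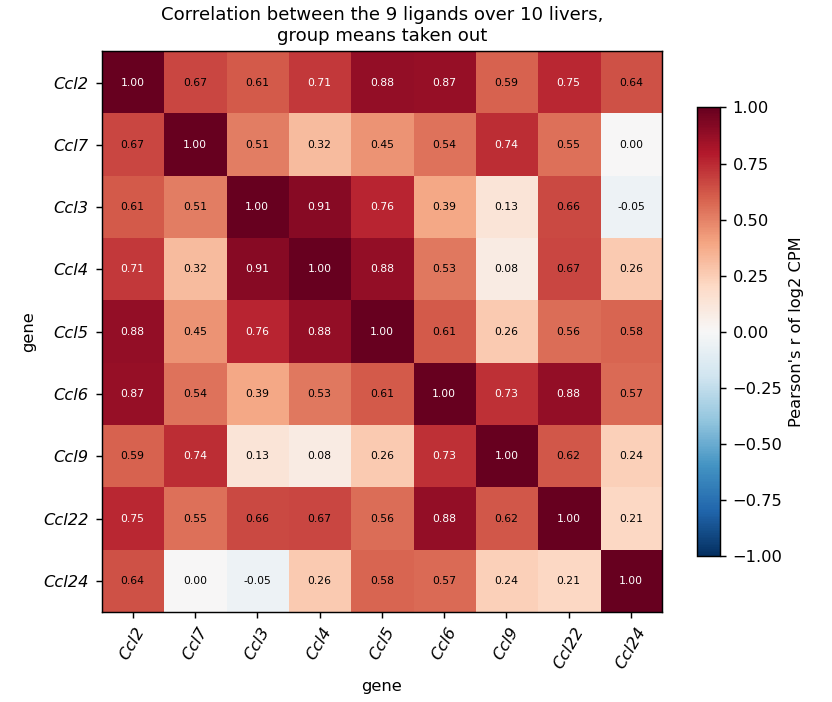
Pearson correlation of log2 CPM between each pair of the 9 ligands over 10 livers after each group's mean was taken out, from blue (negative) to red (positive). Ccl3 and Ccl4 form the reddest pair at 0.91, and Ccl24 is near 0 with Ccl3 and Ccl7.

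Of the 9 genes, 7 lie on chromosome 11 (GRCm38, GENCODE vM21), within 1629 kb. Ccl2 (ENSMUSG00000035385.5, 82035571 to 82037453, + strand) and Ccl7 (ENSMUSG00000035373.2, 82045712 to 82047525, + strand) are 8.26 kb apart. The other 5 lie 1478 kb further on, in the order Ccl5 (ENSMUSG00000035042.2, 83525778 to 83530518, - strand), Ccl9 (ENSMUSG00000019122.8, 83572919 to 83578636, - strand), Ccl6 (ENSMUSG00000018927.3, 83587882 to 83593087, - strand), Ccl3 (ENSMUSG00000000982.5, 83647844 to 83649355, - strand) and Ccl4 (ENSMUSG00000018930.3, 83662584 to 83664683, + strand). Ccl9 and Ccl6 are 9.25 kb apart, and Ccl3 and Ccl4 13.2 kb. Ccl22 (ENSMUSG00000031779.3) is on chromosome 8 from 94745590 to 94751699 (+ strand), and Ccl24 (ENSMUSG00000004814.10) on chromosome 5 from 135569937 to 135573049 (- strand). Exons of the 9 genes overlap no exon of another gene in this annotation. The share of 31-base stretches that also occur in another gene was 3.75% for Ccl9, 1.02% for Ccl6 and at most 0.539% for the other 7. The genes of chromosome 11 differ in their values although they are neighbours, with a log2 fold change for CCl4 in NTC of 1.38 for Ccl9 and 3.83 for Ccl6 next to it.

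Promoter sequences from RefSeq (GRCm38.p6) matched 4 of the 9 genes, Ccl3, Ccl6, Ccl9 and Ccl22. Ccl2, Ccl4, Ccl5, Ccl7 and Ccl24 are named only. The 250 bases before the start of Ccl9 (chr11:83578637-83578886), Ccl6 (chr11:83593088-83593337) and Ccl3 (chr11:83649379-83649628) are shown because these neighbours rose together with CCl4 in both genotypes and by unlike amounts. For Ccl3 the window ends at base 83649379, just before the RefSeq start, which lies upstream of the GENCODE start at base 83649355. For Ccl9 and Ccl6 the starts are the same. All 3 are written 5′ to 3′ along the gene's - strand, with motif matches in capitals.
Ccl9: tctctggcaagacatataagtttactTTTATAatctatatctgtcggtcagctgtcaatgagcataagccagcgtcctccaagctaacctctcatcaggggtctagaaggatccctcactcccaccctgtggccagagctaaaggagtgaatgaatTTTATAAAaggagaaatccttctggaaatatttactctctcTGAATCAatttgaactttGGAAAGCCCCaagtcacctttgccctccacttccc
Ccl6: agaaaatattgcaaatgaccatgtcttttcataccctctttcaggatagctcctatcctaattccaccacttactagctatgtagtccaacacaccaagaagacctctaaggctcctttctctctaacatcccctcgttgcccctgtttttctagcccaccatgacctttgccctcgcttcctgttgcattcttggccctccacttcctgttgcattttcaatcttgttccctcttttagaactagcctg
Ccl3: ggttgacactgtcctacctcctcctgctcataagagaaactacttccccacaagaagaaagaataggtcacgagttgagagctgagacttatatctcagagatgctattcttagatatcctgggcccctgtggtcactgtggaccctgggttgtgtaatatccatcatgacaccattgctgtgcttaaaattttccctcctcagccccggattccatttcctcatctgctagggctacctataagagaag
Both strands were searched for the 10-base NF-kB consensus, the AP-1 motif TGANTCA, the STAT motif (TTC, any 3 bases, GAA) and the TATA motif TATAAA. In Ccl9, the NF-kB consensus matched on the reverse strand from 35 to 26 bases before the start, and TGANTCA from 53 to 47 bases before it. TATAAA matched in Ccl9 from 94 to 89 and from 224 to 219 bases before the start on the reverse strand, and from 92 to 87 on the forward strand, where the matches overlap. STAT had no match in the 3 windows, and Ccl6 and Ccl3 hold none of the 4 motifs. Of 32851 mouse promoters of the same length, 7.25% hold the NF-kB consensus, 6.75% TGANTCA, 7.02% the STAT motif and 12.4% TATAAA. A match is a description of the letters only.

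Of 11 CC receptor genes 7 were tested (not Ccr4, Ccr6, Ccr8 and Ccr10), and 7 were called higher in NTC-CCl4 and 5 in sgBap1-CCl4 by edgeR. Of all tested genes, 27.4% and 29.0% were called higher in these comparisons. Ccr3 had at most 4 counts in each vehicle liver and was tested because of its counts in the CCl4 livers. Ccr9 had at most 15 counts in each vehicle liver. The 7 became 5 without NTC-Veh replicate 2, and 6 without NTC-Veh replicate 1 or NTC-CCl4 replicate 1 or 3. The 5 became 6 without either NTC-Veh liver, and 4 without either sgBap1-Veh liver, NTC-CCl4 replicate 3 or any sgBap1-CCl4 liver. With other settings the 7 were 6 with only the 2 groups compared. The 5 were 7 with library size alone, 6 with only the 2 groups compared and 4 with limma-voom. Ccr1, which binds Ccl3, Ccl5, Ccl6 and Ccl9, rose by a log2 change of 5.24 (SE 0.23) in NTC and 5.17 (SE 0.22) in sgBap1. Ccr2, the receptor of Ccl2 and Ccl7, rose by 4.04 (SE 0.14) and 3.25 (SE 0.13). Between genotypes and for the interaction 0 receptors were called by edgeR and by limma-voom, while DESeq2 called 2 higher in sgBap1-Veh, 0 under CCl4 and 2 lower for the interaction. Among all genes, DESeq2 called 551, 480 and 406 in these comparisons. With each tool, at an unadjusted p under 0.05 there were 3 receptors under vehicle, 1 under CCl4 and 2 for the interaction. By edgeR, 12.3%, 14% and 10.4% of all tested genes had such a value. Of 3 scavenging receptors, which remove chemokines, Ackr4 was lower with CCl4 in both genotypes (-2.39, SE 0.51, and -3.25, SE 0.53; -3.10 in NTC without NTC-CCl4 replicate 2), named after its values were seen. Of 14 other CC ligands 9 were tested, with 1 higher and 3 lower in NTC-CCl4, and 2 higher and 2 lower in sgBap1-CCl4. Among the 9, Ccl11 and Ccl12 had at most 4 counts in each vehicle liver and were tested because of their counts in the CCl4 livers. Among all tested genes, 27.4% were called higher and 26.6% lower in NTC-CCl4, and 29.0% higher and 28% lower in sgBap1-CCl4. Without one liver the 3 fell to 1 (NTC-Veh replicate 1 or 2, NTC-CCl4 replicate 2 or 3) or 2 (NTC-CCl4 replicate 1, sgBap1-CCl4 replicate 1). In sgBap1-CCl4, 1 was higher and 1 lower without sgBap1-Veh replicate 1, 1 and 2 without sgBap1-Veh replicate 2, 2 and 3 without NTC-CCl4 replicate 1, and 3 and 2 without sgBap1-CCl4 replicate 1 or 3. In NTC-CCl4 the other settings gave 1 to 3 lower, with 1 for library size alone and the replicate number as a block, and in sgBap1-CCl4 2 to 3 higher and 1 to 2 lower. Ccl27a fell by 1.12 (SE 0.19) in NTC and by 1.17 (SE 0.19) in sgBap1. Ccl12, a CCR2 ligand chosen after its values were seen, had 0 counts in the NTC-Veh livers and 116 in the NTC-CCl4 livers, at least 20.3-fold higher against a floor of 3 counts over the group. In sgBap1-CCl4 replicate 2, the liver with fat cell genes, Ccl8, Ccl11, Ccl19 and Ccl21a, also chosen after their values were seen, had 166, 91, 199 and 194 counts, more than in any other liver.

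Of 18 genes of the NF-kB response, a pathway known to drive several of these ligands, 14 were called higher and 1 lower in NTC-CCl4, and 13 higher and 1 lower in sgBap1-CCl4 (edgeR). Among all tested genes, 27.4% were called higher and 26.6% lower in NTC-CCl4, and 29.0% higher and 28% lower in sgBap1-CCl4. The 14 were 13 without NTC-Veh replicate 2 or NTC-CCl4 replicate 2 or 3. The 13 were 10 without sgBap1-Veh replicate 1, 12 without sgBap1-Veh replicate 2 or sgBap1-CCl4 replicate 1, and 14 without NTC-CCl4 replicate 1 or 3. With library size alone, 16 were higher and 0 lower in each genotype. There Nfkbia, the 1 lower in NTC, turned to 0.08, and Birc3, the 1 lower in sgBap1, was at -0.11 (both named after their values were seen). Over the other settings, 13 to 14 were higher in NTC and 12 to 14 in sgBap1, each with 1 lower. Tnf rose by a log2 change of 3.42 (SE 0.42) in NTC and 1.78 (SE 0.37) in sgBap1, from 5 to 9 counts in the NTC-Veh livers and 13 to 16 counts in the sgBap1-Veh livers. For the interaction, which tests the difference between these rises, edgeR called 0 of the 18 genes, with a smallest edgeR adjusted p of 0.150. Vcam1, an adhesion molecule for leukocytes, was the 1 gene of the lists beside the ligands that edgeR called between genotypes, at 1.07 (SE 0.17, edgeR adjusted p = 0.0385, 2 of 2 livers higher) in sgBap1-Veh against NTC-Veh. The call on Vcam1 was lost without NTC-Veh replicate 1 (1.00), NTC-Veh replicate 2 (1.14), sgBap1-Veh replicate 1 (0.94) or sgBap1-Veh replicate 2 (1.19), and without NTC-CCl4 replicate 1, NTC-CCl4 replicate 2 or sgBap1-CCl4 replicate 3 (1.07 in each). It was also lost with library size alone (1.08), the replicate number as a block (1.08), limma-voom (1.08) and only the 2 groups compared (1.05). Its edgeR adjusted p ran from 0.0254 to 0.176 without one liver, and over the other settings, DESeq2 and limma-voom included, from 1.47e-05 to 0.0994. Of the 18 genes DESeq2 called 3 higher in sgBap1-Veh, 2 higher in sgBap1-CCl4 and 1 lower for the interaction, where limma-voom called 0, with 5, 3 and 5 at an unadjusted p under 0.05. DESeq2 called 551, 480 and 406 of all genes in these comparisons.

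Markers of cells that can make CC ligands are given beside them, and their part in the differences of the ligands was not tested. Their counts with CCl4 stand beside 27.4% of all tested genes called higher and 26.6% lower in NTC by edgeR. In sgBap1 these shares were 29.0% and 28%. All 10 markers of monocytes and recruited macrophages were higher with CCl4 in both genotypes, and their sum was 34.7 and 36.3 CPM for NTC-Veh, 46.3 and 37.5 for sgBap1-Veh, 512, 582 and 695 in NTC-CCl4 and 745, 855 and 643 in sgBap1-CCl4. Lgals3 had the highest group mean of them under CCl4, Cd9 in NTC-Veh and Plac8 in sgBap1-Veh. Of 10 Kupffer cell markers, 6 were higher in NTC-CCl4, and 2 higher and 2 lower in sgBap1-CCl4. Without one liver the count in NTC-CCl4 ran from 6 to 8. In sgBap1-CCl4, 0 were higher and 1 lower without sgBap1-Veh replicate 2, where C1qb, Marco and Timd4 were no longer called. There were 1 and 1 without sgBap1-CCl4 replicate 2 or 3, 1 and 2 without NTC-CCl4 replicate 2, and 2 and 1 without sgBap1-Veh replicate 1 or sgBap1-CCl4 replicate 1. With library size alone, 8 were higher in NTC-CCl4, and 5 higher and 1 lower in sgBap1-CCl4. The remaining settings gave 6 to 7 higher in NTC-CCl4, and 1 to 2 each way in sgBap1-CCl4. Their sum was 385 and 251 CPM for NTC-Veh, 749 and 512 for sgBap1-Veh, 839, 703 and 1207 in NTC-CCl4 and 638, 947 and 767 in sgBap1-CCl4. Cd5l had the highest group mean of them in 3 groups and Marco in NTC-CCl4. From vehicle to CCl4 the mean of Marco went from 14.9 to 251 CPM in NTC and from 27.8 to 189 CPM in sgBap1. That of Clec4f went from 75.2 to 63.2 CPM in NTC and from 143 to 58.5 CPM in sgBap1. The sum thus does not describe each marker, and with CCl4 9 of the 10 had a positive log2 fold change in NTC and 6 in sgBap1. In sgBap1-Veh against NTC-Veh edgeR called 0 Kupffer cell markers, 8 had an unadjusted p under 0.05 beside 12.3% of all tested genes, and their median log2 fold change was 0.95. Monocyte and recruited macrophage markers had 0 called, 5 at an unadjusted p under 0.05 and a median of 0.51. T and NK cell markers had 0 called, 5 at an unadjusted p under 0.05 and a median of 1.01, and B cell markers 0, 3 and 0.74, where the median of the 9 ligands was 0.92. For the interaction it called 0 of the Kupffer cell markers, with 9 at an unadjusted p under 0.05 beside 10.4% of all tested genes, and a median of -1.20. Monocyte and recruited macrophage markers had 0 called, 3 at an unadjusted p under 0.05 and a median of -0.35. T and NK cell markers had 0 called, 3 at an unadjusted p under 0.05 and a median of -1.12, and B cell markers 0, 5 and -1.11, where the median of the ligands was -0.44. Without sgBap1-CCl4 replicate 2, again 0 were called in each of these lists for the interaction, with 9 (Kupffer cell), 2 (monocyte and recruited macrophage), 5 (T and NK cell) and 2 (B cell) at an unadjusted p under 0.05. The tools differed on these lists. In sgBap1-Veh against NTC-Veh, DESeq2 called 8 Kupffer cell, 2 monocyte and recruited macrophage, 0 T and NK cell (5 at an unadjusted p under 0.05) and 1 B cell marker, all higher. For the interaction it called 5, 1, 0 (2 at an unadjusted p under 0.05) and 1, all lower. Its calls over all genes were 551 under vehicle and 406 for the interaction. Limma-voom called 0 in each list, with 8, 3, 5 and 4 at an unadjusted p under 0.05 under vehicle and 9, 3, 3 and 5 for the interaction. The shares of all tested genes at an unadjusted p given here are those of edgeR. DESeq2 was not fitted without single livers. T and NK cell markers (11) had a sum of 6.48 and 3.71 CPM for NTC-Veh, 10.6 and 10.6 for sgBap1-Veh, 10.5, 8.85 and 12.6 in NTC-CCl4 and 7.29, 11.4 and 11.2 in sgBap1-CCl4. Cd3e had the highest mean in the vehicle groups and Cd4 in the CCl4 groups. With CCl4, 5 of them were called higher in NTC and 0 in sgBap1. Without NTC-Veh replicate 2 the 5 fell to 1, as Cd4, Cd8a, Gzma and Gzmb were no longer called. They were 3 without NTC-Veh replicate 1 or NTC-CCl4 replicate 1, and 4 without sgBap1-Veh replicate 1 or 2, NTC-CCl4 replicate 2 or 3, or sgBap1-CCl4 replicate 2. Gzma and Gzmb were also not called by DESeq2, by limma-voom or with the replicate number as a block, which left 3 in each. The 5 were 4 with no filter beyond 1 count or only the 2 groups compared, and 8 with library size alone, which called 3 higher in sgBap1. In sgBap1, 1 was called lower without NTC-CCl4 replicate 3 or sgBap1-CCl4 replicate 3, with the replicate number as a block and with only the 2 groups compared. Of 9 neutrophil markers 7 were tested and 6 were higher with CCl4 in both genotypes (5 in NTC without NTC-Veh replicate 2 and 7 without NTC-CCl4 replicate 1), with sums of 11.1 and 6.15 CPM for NTC-Veh, 12.6 and 9.88 for sgBap1-Veh, 29.6, 40.2 and 39.3 in NTC-CCl4 and 41.2, 42.5 and 32.8 in sgBap1-CCl4. Csf3r had the highest mean of them in each group, and Ly6g, a defining marker, was at 0 counts in 3 of the 4 vehicle livers. Mmp8 had at most 6 counts in each vehicle liver and was tested because of its counts in the CCl4 livers. Of 5 B cell markers, 4 and 0 were higher with CCl4 in NTC and sgBap1. In NTC they were 0 without NTC-Veh replicate 2, 2 without NTC-CCl4 replicate 3, 3 without NTC-CCl4 replicate 1 and 5 without NTC-Veh replicate 1. Library size alone gave 5 higher in NTC and 1 in sgBap1, and only the 2 groups compared gave 3 higher in NTC and 1 lower in sgBap1. The sums were 18.4 and 10.7 CPM for NTC-Veh, 39.7 and 28.2 for sgBap1-Veh, 41.8, 21.7 and 33.2 in NTC-CCl4 and 26.0, 26.1 and 26.4 in sgBap1-CCl4, and Ighm had the highest mean in each group.

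Of 8 dendritic cell markers 3 were higher in NTC-CCl4, and 3 higher and 3 lower in sgBap1-CCl4. Among all tested genes, 27.4% were called higher and 26.6% lower in NTC-CCl4, and 29.0% higher and 28% lower in sgBap1-CCl4. These shares stand beside each count of this paragraph. The sums of the dendritic cell markers lay between 111.9 and 161.8 CPM, and Cst3 was the highest in each group mean. Cst3 alone was at 88.0 to 124.6 CPM over the livers, so that these sums mostly follow Cst3 and say little of the other markers. The 3 higher in NTC-CCl4 were 2 without NTC-Veh replicate 1 or 2 or NTC-CCl4 replicate 2, and without NTC-CCl4 replicate 3, 1 was lower. The 3 lower in sgBap1-CCl4 were 0 without sgBap1-Veh replicate 1, and 2 without sgBap1-Veh replicate 2 or sgBap1-CCl4 replicate 1, and the 3 higher were 2 without any one liver but NTC-CCl4 replicate 2 or sgBap1-CCl4 replicate 1. With library size alone, 6 were higher in NTC-CCl4, and 4 higher and 0 lower in sgBap1-CCl4. There the 3 lower genes, named after their values were seen, were at -0.06 (Clec9a), -1.11 (Xcr1) and 0.05 (Zbtb46), the last turned in direction. The remaining settings gave 2 to 3 higher in NTC-CCl4, and 2 to 3 each way in sgBap1-CCl4. Stellate cell markers (7) had 5 and 4 called higher with CCl4 (3 in NTC without NTC-Veh replicate 1, and 4 without NTC-CCl4 replicate 1 or 2; all 7 in each with library size alone), with sums between 232.5 and 320.1 CPM under vehicle, between 522.4 and 705.1 CPM in 5 CCl4 livers and 1464 CPM in sgBap1-CCl4 replicate 2. Dcn had the highest mean in 3 groups and Col3a1 in sgBap1-CCl4, where Col3a1 reached 584.2 CPM and Dcn 267.9 CPM in replicate 2. All 8 hepatocyte markers were lower in NTC-CCl4 (5 to 8 without one liver, 5 without NTC-Veh replicate 1) and 5 in sgBap1-CCl4 (4 without sgBap1-Veh replicate 2 and 7 without sgBap1-CCl4 replicate 3), with sums between 1.21e+05 and 1.65e+05 CPM under vehicle and between 6.81e+04 and 8.74e+04 CPM under CCl4, and Alb the highest in each group mean. Library size alone called 6 and 4 of them lower, the replicate number as a block 7 and 5, and DESeq2 8 and 8. Of 5 sinusoidal endothelial markers, 2 were higher in NTC-CCl4, and 1 higher and 1 lower in sgBap1-CCl4, with sums between 123.1 and 170.0 CPM. The 2 became 1 without either NTC-Veh liver or any NTC-CCl4 liver, and 3 without either sgBap1-Veh liver. The 1 lower became 0 without sgBap1-Veh replicate 1, sgBap1-CCl4 replicate 1 or sgBap1-CCl4 replicate 2, and 3 without sgBap1-Veh replicate 2. Over the other settings 1 to 3 were higher in NTC-CCl4, and 1 to 2 higher and 0 to 1 lower in sgBap1-CCl4, with 0 lower for library size alone and for no filter beyond 1 count. Stab2 had the highest mean in 3 groups and Clec4g in sgBap1-Veh. Of 4 bile duct markers 1, Sox9, was higher in each, with sums between 4.47 and 7.81 CPM under vehicle and between 11.9 and 17.8 CPM under CCl4. Of the 7 fat cell markers 2 were tested, with 1 higher in NTC-CCl4 and 2 in sgBap1-CCl4 (2 and 2 without sgBap1-CCl4 replicate 2). The 1 became 0 without either NTC-Veh liver. The 2 became 0 without sgBap1-Veh replicate 1, and 1 without either NTC-Veh liver, sgBap1-Veh replicate 2 or any NTC-CCl4 liver. Limma-voom called 0 in each, and the other settings called 1 to 2 (NTC-CCl4) and 1 to 3 (sgBap1-CCl4). Apart from the fat cell markers, Ly6g and Camp, no marker of these lists was at 0 counts in any liver.

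**Figure D5:**
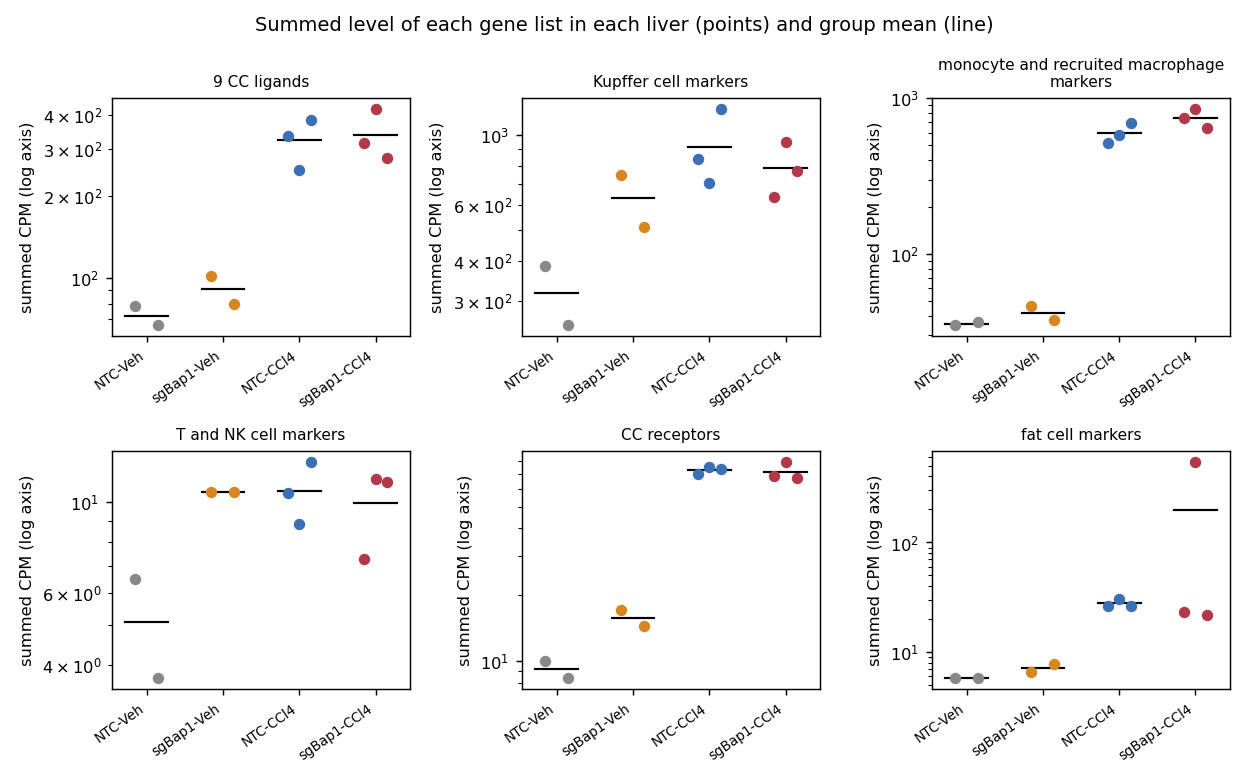
Summed CPM, on a log axis with its own range per panel, of the 9 ligands, of Kupffer cell, monocyte and recruited macrophage, T and NK cell and fat cell markers and of the CC receptors, by group (points are livers, lines are group means; n = 2 for each vehicle group and 3 for each CCl4 group). The ligands, the monocyte and recruited macrophage markers and the receptors separate CCl4 from vehicle livers, and 1 sgBap1-CCl4 liver stands apart at 545.3 CPM of fat cell markers.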

How the data were processed

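RNA of 10 mouse livers was analysed. The deposited table holds one estimated count per gene symbol and liver, made by the authors with Salmon and not normalized. In it 9.22% of the values are not whole numbers. The submitters' processing notes give STAR 2.7.6a, Salmon 1.4.0 and GRCm38. Each of the 10 columns has its sample, named by group and replicate. The other data of the study were not analysed here.

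Counts were rounded, and the tests were those of edgeR 4.0.16 (R 4.3.3): filterByExpr by group (17015 genes kept), TMM scaling, one robust quasi-likelihood model of the 4 groups, two-sided tests of 4 pairwise comparisons and the interaction, and Benjamini-Hochberg adjustment over all tested genes of each comparison at 0.05. Of the quasi-likelihood methods that this version offers, the newer one (legacy = FALSE) was taken after the results of both were seen. Log2 CPM has a prior count of 2. The totals per liver were 3.3e+07 to 5.22e+07. The analysis was tested on simulated data, and no result of that test is given here.

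The 9 ligands and all lists (other CC ligands, CC receptors, scavenging receptors, NF-kB response, and markers of 11 cell types) were chosen with earlier results of these data known. All 9 ligands are named. From the lists, named genes are those called between genotypes or in the interaction, and at most the 3 called genes per list and CCl4 comparison with the largest change among those with a mean of at least 50 counts; not each of these is printed. Named outside this rule, after their values were seen, are the gene with the highest mean of a list in a group, genes at low or 0 counts or not tested, genes whose call another setting or a left-out liver ended, Ackr4, and other CC ligands said to be so chosen. Genes with a like pattern were ranked by Pearson correlation, and at most 3 per ligand were taken. The authors made the counts on GENCODE vM25, which was not used here. Positions and exon lengths come from GENCODE vM21, so that CPM per kb joins counts and lengths of different releases.

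Alternatives were DESeq2 size factors, library size alone, no filter beyond 1 count, a filter at a mean of 10 counts, a block for the replicate number, DESeq2 1.42.0, limma-voom (limma 3.58.1), only the 2 groups compared, and each liver left out in turn. After the data were seen, library sizes of all genes, TMM before filtering and the quasi-likelihood method of edgeR 3 were added. The labels name no batch.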

Additional observations from a re-analysis of the deposited data

How the results depend on the processing

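In the settings other than left-out livers, no ligand changed direction (library size alone raises all values for CCl4, so it could not reverse these), and of the values of ligands 476 kept direction and side of the threshold, 8 passed it newly and 0 lost it. Called ligands numbered 8 to 9 for CCl4 in NTC (9 with library size alone and with DESeq2) and 6 to 9 in sgBap1 (9 with library size alone, 8 with only the 2 groups compared, 7 with DESeq2), and 0 in the other comparisons. With the replicate number as a block they were 0 and 0 between genotypes, 8 and 6 for CCl4 and 0 for the interaction, and pairs of livers by replicate number had correlations of -0.15 to 0.02. The quasi-likelihood method of edgeR 3, added after the data were seen, gave the same counts of ligands, and over all genes 89 and 43 calls between genotypes against 69 and 56. All-gene calls were 551, 480 and 406 with DESeq2 for the genotypes under vehicle, under CCl4 and the interaction, against 69, 56 and 0. Under vehicle they were 1 with the replicate block, 25 with limma-voom, 27 with only the 2 groups compared and 32 with library size alone. Under CCl4 they were 24 with the block, 28 with only the 2 groups and 94 without a filter, and for the interaction 34 without a filter and 2 with library size alone. Without one liver, the ligands called ranged from 7 to 9 for CCl4 in NTC and from 6 to 7 in sgBap1, and were 0 to 0 in each other comparison, where all-gene calls ranged from 0 to 150 for the genotypes under vehicle, from 1 to 71 under CCl4 and from 0 to 7 for the interaction; a lone liver was assumed to vary like the other groups. Signs reversed without one liver for sgBap1-CCl4 against NTC-CCl4, for Ccl2 without NTC-CCl4 replicate 1 (-0.05), NTC-CCl4 replicate 2 (-0.15), sgBap1-CCl4 replicate 1 (-0.09) and sgBap1-CCl4 replicate 2 (-0.15), Ccl22 without NTC-CCl4 replicate 3 (0.29) and sgBap1-CCl4 replicate 1 (0.01), Ccl6 without NTC-CCl4 replicate 2 (-0.08) and sgBap1-CCl4 replicate 2 (-0.08), Ccl7 without NTC-CCl4 replicate 3 (0.04) and sgBap1-CCl4 replicate 3 (0.02), and Ccl9 without NTC-CCl4 replicate 2 (-0.11) and sgBap1-CCl4 replicate 2 (-0.18). For the interaction they reversed for Ccl24 without sgBap1-Veh replicate 1 (0.11), Ccl3 without NTC-Veh replicate 2 (0.07) and sgBap1-Veh replicate 2 (0.12), Ccl4 without NTC-Veh replicate 2 (0.37), and Ccl5 without NTC-Veh replicate 2 (0.56), sgBap1-Veh replicate 1 (0.00), NTC-CCl4 replicate 3 (0.03) and sgBap1-CCl4 replicate 3 (0.19). Over all fits without one liver, the values under CCl4 ranged from -0.15 to 0.32 for Ccl2, -0.44 to 0.29 for Ccl22, -0.08 to 0.25 for Ccl6, -0.44 to 0.04 for Ccl7 and -0.18 to 0.17 for Ccl9, and those of the interaction from -0.85 to 0.11 for Ccl24, -1.45 to 0.12 for Ccl3, -2.49 to 0.37 for Ccl4 and -1.28 to 0.56 for Ccl5. None of these values was called, and the cause was not tested.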
